A study of Mus musculus with 7 samples.

Results

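The 8 keratins described here were the basal keratins Krt5, Krt14, Krt15 and Krt17 and the luminal keratins Krt7, Krt8, Krt18 and Krt19. They were taken by gene symbol, each symbol matched 1 row of the count matrices, and they were 8 of the 31053 genes measured in 7 single-cell libraries of mouse mammary tumors. Their UMIs (unique molecular identifiers, 1 for each captured transcript) were counted in 12168 cells, the deposited barcodes with at least 1000 UMIs, 500 genes and less than 20% mitochondrial UMIs. Of the 53 keratin genes in the matrices 43 had at least 1 UMI, and the 8 members held between 87.4% (BRCA1-null A) and 99.7% (PyMT A) of all keratin UMIs of a library.

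Keratins are the intermediate filament proteins of epithelial cells. A filament is built from pairs of an acidic type I chain (Krt14, Krt15, Krt17, Krt18 and Krt19 here) and a basic type II chain (Krt5, Krt7 and Krt8), so that Krt5 pairs with Krt14 and Krt8 with Krt18. In the normal mammary gland the outer basal, or myoepithelial, layer carries Krt5 and Krt14, the inner luminal layer carries Krt8, Krt18 and Krt19, and keratins are the usual markers by which basal-like and luminal breast cancers are told apart.

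The tumors were BRCA1-null (spontaneous, with K14-Cre and the floxed alleles Brca1 F/F and Trp53 F/F), PyMT (an MMTV-PyMT tumor line with floxed FIP200 alleles and no Cre, transplanted) and Neu (MMTV-Neu, spontaneous), with 2 tumors of each type, A and B, from adult FVB/NJ mice, plus 1 tumor of transplanted 4T1 cells, a mouse mammary carcinoma line marked with GFP, in BALB/C mice. All were untreated and were taken at about 1000 mm3. In the BRCA1-null model the promoter of Krt14 itself drives Cre, so the deletions began in cells with an active Krt14 promoter. The PyMT and 4T1 tumors each started from 1 cell line. The MMTV-Neu strain was, like MMTV-PyMT, bred with floxed FIP200 mice. For Neu A, as for the PyMT line, the paper gives floxed FIP200 alleles without Cre, and it does not give the FIP200 alleles of Neu B separately. The A and 4T1 libraries are labelled as CD24+ Lin- sorts (Ter119-, CD31- and CD45-), a gate that the labels of the B libraries do not state. The paper describes this sort for the tumors and names no exception for the replicates. The letters also mark the sequencing batch.

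Library depth ranged from 5578911 UMIs in 245 cells (BRCA1-null A) to 37693300 UMIs in 1842 cells (PyMT B), with medians of 8609 to 19411 UMIs per cell. BRCA1-null B stood apart, since 961 of its 2078 cells (46.2%) carried at least 3 fibroblast, pericyte, endothelial or leukocyte markers (918 of them fibroblast markers), against 11.8% in BRCA1-null A and at most 0.457% elsewhere. Across libraries 118 barcode sequences occurred more than once, in 213 cells, and 78 cells (0.641%) were called doublets and kept. Erbb2 read 25.7 and 19.6 CPM (counts per 1000000 UMIs of the library's cells) in the Neu tumors and 3.23 to 15.1 in the others. Brca1 and Trp53 read 9.68 and 2.81, and 39.1 and 25.1 CPM, in the BRCA1-null tumors A and B, but 3′ tags do not show a deletion of exons upstream of them, so these levels check nothing. The 2 PyMT tumors are transplants of 1 line, FF99WT, so their spread is one between transplants, and the labels do not say how the 2 spontaneous tumors of the other types are related.

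The genes sit in the 2 keratin clusters of the mouse genome (GENCODE M21, GRCm38/mm10). Type I members lie on chr11, with Krt15 at chr11:100131758-100135928, Krt19 at chr11:100140810-100148665, Krt14 at chr11:100203162-100207548 and Krt17 at chr11:100256217-100261029, all on the minus strand. On chr15 lie Krt7 (chr15:101411043-101430313, plus strand), Krt5 (chr15:101707070-101712898, minus strand), Krt8 (chr15:101996698-102004482, minus strand) and the type I gene Krt18 (chr15:102028180-102032027, plus strand). Krt8 and Krt18, whose products pair, are 23.7 kb apart and point away from each other. The libraries count 3′ ends, and none of the 511 stretches of 90 bases in the last 600 bases of each member's transcript occurred in a transcript of another gene.

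Promoter windows (250 bases before to 50 bases after the RefSeq start, GRCm38.p6) are shown for Krt5, Krt8 and Krt18, which define the double-positive cells described further on, and for Krt7, the member whose calls held under every alternative. The RefSeq table has windows for 5 of the 8 members, and that of Krt14 is not shown because no coding transcript of GENCODE starts there. The windows shown hold the start of a GENCODE coding transcript, 8 bases from the RefSeq start for Krt5, 35 for Krt18, 139 for Krt8 and 0 for Krt7; that of Krt7 lies within the span of the gene given above, since other transcripts of Krt7 start further upstream. They read 5′ to 3′ on the gene's strand, and capitals mark the TATA box TATAAA, the GC box GGGCGG and the AP-1 motif TGACTCA, searched on both strands. The Krt5 window (chr15:101712856-101713155) and the Krt18 window (chr15:102027966-102028265) held none of the 3, the Krt7 window (chr15:101412153-101412452) held 4 GC boxes, and the Krt8 window (chr15:102004293-102004592) held TATAAA overlapping its own reverse complement, at a place that lies after the GENCODE start.
Krt5: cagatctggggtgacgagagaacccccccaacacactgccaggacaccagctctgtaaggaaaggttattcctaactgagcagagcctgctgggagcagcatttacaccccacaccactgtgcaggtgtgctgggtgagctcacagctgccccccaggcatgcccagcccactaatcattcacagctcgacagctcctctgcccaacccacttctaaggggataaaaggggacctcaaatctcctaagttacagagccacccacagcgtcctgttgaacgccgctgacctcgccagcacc
Krt7: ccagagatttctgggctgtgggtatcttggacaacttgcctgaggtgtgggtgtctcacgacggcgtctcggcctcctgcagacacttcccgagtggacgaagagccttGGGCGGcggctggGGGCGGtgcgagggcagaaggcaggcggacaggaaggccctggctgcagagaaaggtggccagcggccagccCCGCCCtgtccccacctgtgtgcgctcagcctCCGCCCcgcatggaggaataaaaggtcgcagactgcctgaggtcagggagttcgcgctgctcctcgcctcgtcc
Krt8: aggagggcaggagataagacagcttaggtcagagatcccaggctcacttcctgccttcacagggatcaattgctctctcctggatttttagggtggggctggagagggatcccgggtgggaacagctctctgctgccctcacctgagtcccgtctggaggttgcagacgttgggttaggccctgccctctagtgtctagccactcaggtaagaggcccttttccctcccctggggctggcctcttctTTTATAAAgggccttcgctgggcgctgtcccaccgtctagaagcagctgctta
Krt18: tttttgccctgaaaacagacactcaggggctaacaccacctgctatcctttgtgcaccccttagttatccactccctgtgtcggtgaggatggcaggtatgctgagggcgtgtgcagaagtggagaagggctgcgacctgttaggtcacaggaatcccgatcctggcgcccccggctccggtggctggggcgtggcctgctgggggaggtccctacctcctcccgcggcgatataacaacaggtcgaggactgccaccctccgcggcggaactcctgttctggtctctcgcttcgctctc
Of the 32851 promoter windows in that table, 13.6% held TATAAA, 35.7% held GGGCGG and 5.2% held TGACTCA in either direction. These windows are 57.7% (Krt5), 66.3% (Krt7), 58.0% (Krt8) and 61.3% (Krt18) G and C, against a median of 52.7% over the table.

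Among the BRCA1-null, PyMT and Neu tumors, the basal keratins were highest in BRCA1-null and the luminal pair Krt8 and Krt18 in PyMT. Levels are given in CPM, and fold changes come from edgeR's quasi-likelihood test on the summed UMIs of the 6 libraries of the 3 types, with Benjamini-Hochberg adjustment over the 13950 genes tested; all 8 members passed its filter on low counts. At an adjusted p of 0.05, 14.2% of genes were higher and 7.91% lower in BRCA1-null than in PyMT tumors, 16.3% were higher and 12.8% lower in BRCA1-null than in Neu tumors, and 7.47% were higher and 9.33% lower in PyMT than in Neu tumors. Against these shares, 3 members were higher and 3 lower in BRCA1-null than in PyMT tumors, 5 were higher and 0 lower in BRCA1-null than in Neu tumors, and 3 were higher and 0 lower in PyMT than in Neu tumors. In a bulk sum, fewer cells with a keratin and less RNA of it per cell cannot be told apart, so the shares of cells follow the levels. With 2 tumors against 2, an exact permutation test of a single value cannot go below p = 0.333, and no such test was made.

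**Figure D1:**
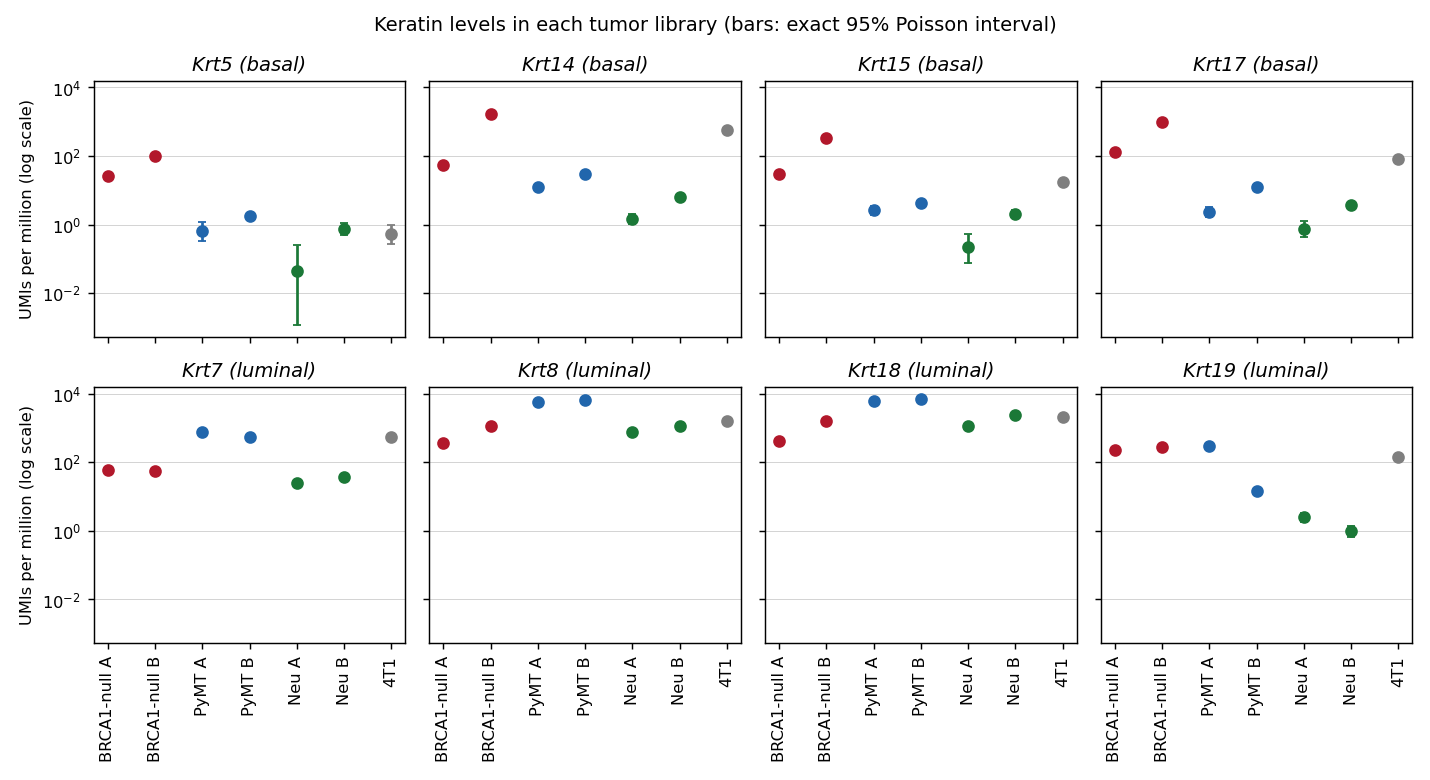
Level of each keratin (CPM, log scale, y axis) in each library (x axis), with the exact 95% Poisson interval of the count as a bar, colored by tumor type. Both BRCA1-null libraries lie above the PyMT and Neu libraries for all 4 basal keratins, and both PyMT libraries lie above the BRCA1-null and Neu libraries for Krt7, Krt8 and Krt18.

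Krt5, the type II chain of basal cells, read 26.5 and 101 CPM in BRCA1-null A and B, 0.662 and 1.72 in PyMT A and B, 0.0452 and 0.743 in Neu A and B, and 0.544 for the 4T1 tumor. The BRCA1-null tumors did not overlap any other tumor, and Neu A held 1 UMI of Krt5 in all. Krt5 was higher in BRCA1-null than in PyMT tumors (log2 fold change 5.40 ± 1.14 SE, adjusted p = 0.0218, edgeR) and than in Neu tumors (7.03 ± 1.249, adjusted p = 0.0106, edgeR). PyMT and Neu tumors overlapped, and their difference of 1.64 did not pass (adjusted p = 0.338, edgeR).

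Krt14, the partner of Krt5, read 56.5 and 1634 CPM in BRCA1-null A and B, 12.1 and 30.7 in the PyMT and 1.49 and 6.33 in the Neu tumors, with 4T1 at 569.7. It was the most uneven member within a type, with 28.9 times as much in BRCA1-null B as in A, and 4T1 lay between those 2 tumors. Krt14 was higher in BRCA1-null than in Neu tumors (log2 fold change 7.58 ± 1.81 SE, adjusted p = 0.0241, edgeR). Its difference of 5.04 ± 1.60 from PyMT tumors did not pass (adjusted p = 0.0647, edgeR), although the tumors did not overlap, and neither did that between PyMT and Neu tumors (2.54, adjusted p = 0.262).

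Krt15, a basal type I keratin of stratified epithelia, read 30.5 and 332 CPM in BRCA1-null A and B, 2.59 and 4.35 in the PyMT tumors and 0.226 and 2.05 in the Neu tumors, with 4T1 at 17.1. Krt17, a type I keratin of hair follicles, glands and injured epidermis, read 132 and 986, 2.37 and 12.9, 0.768 and 3.71, and 81.2 in the same order. Both had the BRCA1-null tumors highest and 4T1 next. Krt15 was higher in BRCA1-null than in PyMT (5.42 ± 1.40, adjusted p = 0.0366, edgeR) and Neu tumors (7.08 ± 1.52, adjusted p = 0.0176, edgeR), and so was Krt17 (5.90 ± 1.44, adjusted p = 0.0311, and 7.76 ± 1.57, adjusted p = 0.0148, edgeR). Neither differed between PyMT and Neu tumors past the threshold (1.66 and 1.86, adjusted p = 0.39 and 0.33, edgeR).

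Krt7, a type II chain of simple glandular epithelia, followed another order. It read 765.5 and 552 CPM in PyMT A and B, 558 in 4T1, 58.4 and 57.1 in BRCA1-null A and B, and 25.7 and 38.0 in Neu. PyMT and 4T1 formed the upper and BRCA1-null and Neu the lower levels, and no tumor lay between 58.4 and 552. Krt7 was lower in BRCA1-null than in PyMT tumors (log2 fold change -3.88 ± 0.38 SE, adjusted p = 0.0031, edgeR) and higher in PyMT than in Neu tumors (4.51 ± 0.40, adjusted p = 0.0031, edgeR), and both calls were kept in 14 of 14 alternatives. BRCA1-null and Neu tumors, which did not overlap, differed by 0.63, which did not pass (adjusted p = 0.206, edgeR).

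Krt8 and Krt18, the pair of simple and luminal epithelia, were the most abundant members in every library but BRCA1-null B. Krt8 read 5950 and 6703 CPM in PyMT A and B, 1623 in 4T1, 788 and 1169 in Neu, and 355 and 1122 in BRCA1-null. Krt18 read 6181 and 7017 in PyMT, 2155 in 4T1, 1143 and 2338 in Neu, and 424 and 1645 in BRCA1-null. The PyMT tumors stood above all others, and the BRCA1-null and Neu tumors overlapped for both genes. Krt8 was lower in BRCA1-null than in PyMT tumors (-3.41 ± 0.65, adjusted p = 0.017, edgeR) and higher in PyMT than in Neu tumors (2.83 ± 0.63, adjusted p = 0.0285, edgeR). Krt18 was lower in BRCA1-null than in PyMT tumors (-2.97 ± 0.75, adjusted p = 0.0346, edgeR), and its difference of 2.05 between PyMT and Neu tumors did not pass (adjusted p = 0.0988). Between BRCA1-null and Neu tumors Krt8 and Krt18 differed by -0.57 and -0.92 (adjusted p = 0.495 and 0.357, edgeR). The ratio of Krt18 to Krt8 UMIs stayed between 1.04 (PyMT A) and 2.00 (Neu B) over the 7 libraries.

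Krt19, the type I keratin without a tail domain, was the member whose 2 PyMT tumors differed most, with 305 CPM in PyMT A and 15.04 in PyMT B, a ratio of 20.3. It read 226 and 274 in the BRCA1-null tumors, 141 in 4T1, and 2.49 and 0.980 in Neu, the lowest tumors. Krt19 was higher in BRCA1-null (7.03 ± 1.45, adjusted p = 0.0156, edgeR) and in PyMT (6.74 ± 1.43, adjusted p = 0.0244, edgeR) than in Neu tumors. BRCA1-null and PyMT tumors overlapped and differed by 0.29, with the sign set by PyMT B and BRCA1-null B (adjusted p = 0.876, edgeR): the value was -0.66 without PyMT B and -0.11 without BRCA1-null B.

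Many of these calls changed when 1 tumor was left out. Such a fit holds 1 tumor of that type and has fewer residual degrees of freedom. Calls over all genes changed widely as well, as given in the closing section, so these changes are not particular to the keratins. In BRCA1-null against PyMT 6 members passed, of which 1 was left without PyMT A and 1 without PyMT B (Krt7 both times), 3 without Neu A and 3 without Neu B, and 4 without BRCA1-null B; 7 passed without BRCA1-null A, with Krt14 added. In BRCA1-null against Neu 5 members passed, 0 without Neu A (edgeR, 5 at an unadjusted p under 0.05) and 1 without Neu B (Krt5); leaving out BRCA1-null B added Krt8 and Krt18 as lower and lost Krt14 and Krt19. In PyMT against Neu 3 passed, 1 without Neu A and 1 without Neu B (Krt7 both times), and 2 without PyMT A or PyMT B (Krt7 and Krt19). With all genes kept in the fit, in place of those past the count filter, 2, 0 and 2 members passed, and DESeq2 passed 7, 5 and 4. A fit with the letter as a replicate block passed 7 members in BRCA1-null against PyMT and 5 in PyMT against Neu.

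The make-up of the keratins differed more than their sum. The 8 genes together read 1309 and 6151 CPM in BRCA1-null A and B, 13220 and 14337 in the PyMT tumors, 1961 and 3559 in the Neu tumors and 5146 in 4T1. The 4 basal genes gave 18.7% and 49.6% of these UMIs in BRCA1-null A and B, 13.0% in 4T1, 0.134% and 0.346% in the PyMT and 0.129% and 0.361% in the Neu tumors. BRCA1-null and 4T1 tumors thus stood apart from PyMT and Neu tumors, which held almost no basal keratin. Krt14 gave 11.1% and Krt5 0.0106% of the keratin UMIs of 4T1, so its basal part was Krt14 with little Krt5. There were 1046 Krt14 UMIs for each Krt5 UMI in 4T1, against 2.13 and 16.1 in BRCA1-null A and B, 18.2 and 17.8 in the PyMT tumors and 33.0 and 8.52 in the Neu tumors.

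**Figure D2:**
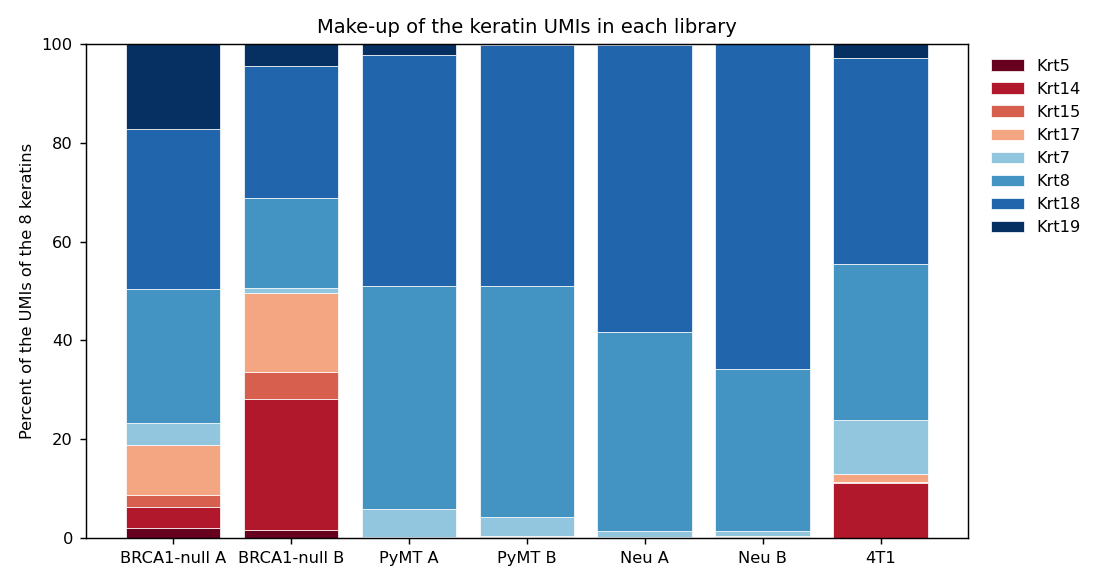
Share of each keratin in the UMIs of the 8 keratins (percent, y axis) in each library (x axis), with basal keratins in reds and luminal keratins in blues. The basal part is 49.6% in BRCA1-null B, 18.7% in BRCA1-null A, 13.0% in 4T1 and at most 0.361% in the PyMT and Neu libraries.

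Outside the 8 members, 3 keratins passed 50 CPM in a library. Krt16, a partner of Krt6 in stressed epidermis, read 22.6 and 198 CPM in BRCA1-null, 80.8 in 4T1, 3.97 and 7.19 in the PyMT tumors and 0.136 and 0.683 in the Neu tumors, and was higher in BRCA1-null than in PyMT (log2 fold change 4.02, adjusted p = 0.0448, edgeR) and Neu tumors (7.81, adjusted p = 0.0102, edgeR). Krt6a read 19.0 and 113 in BRCA1-null and at most 1.32 in any other library, and passed against PyMT (6.05, adjusted p = 0.0223, edgeR) and Neu (8.41, adjusted p = 0.0101, edgeR). Krt79, a keratin of the hair canal and sebaceous duct, read 36.2 and 70.7 in the BRCA1-null tumors, 12.8 and 9.07 in the PyMT tumors and 0.362 and 0.980 in the Neu tumors. It was higher in BRCA1-null and in PyMT than in Neu tumors (6.06 and 4.10, adjusted p = 0.00329 and 0.0111, edgeR), while its difference of 1.97 between BRCA1-null and PyMT did not pass (adjusted p = 0.0508, edgeR).

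Genes that work with keratins or mark other lineages were described by lists, as counts of members past the same test beside the percentages of all genes given above. Of 12 tested genes of squamous differentiation 7 were higher in BRCA1-null than in PyMT and 9 higher than in Neu tumors, with Krt6a, Krt16 and Lgals7 (galectin-7, of stratified epithelia) in both. Of 8 basal regulators 5 (Id4, Jag2, Snai2, Tbx3 and Trp63, the p63 master regulator of basal epithelium) were higher in BRCA1-null than in either type. Of 11 tested desmosome genes, whose plaques anchor keratin, 2 were higher and 4 lower in BRCA1-null than in PyMT tumors (Dsc2 and Dsc3 higher; Evpl, Jup, Pkp2 and Pkp3 lower). Against Neu tumors 2 of them were higher (Dsc3 and Pkp1) and 2 lower (Dsc2 and Pkp2), and of 9 hemidesmosome genes 2 (Col17a1 and Lama3) were higher and 1 (Dst) lower, a share near that of all genes. Against PyMT tumors 0 of the 9 were called in either direction by edgeR (4 at an unadjusted p under 0.05), and 3 were called by DESeq2. The median log2 fold change of the desmosome list was -1.39 in BRCA1-null against PyMT, beside 0.11 over all genes. Among 11 tested intermediate filament genes other than keratins, Vim, Nefl, Nefm and Prph were higher and Nes was lower in BRCA1-null than in both other types.

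Most markers of fibroblasts, endothelial cells and leukocytes were, like the basal keratins, higher in BRCA1-null than in PyMT and Neu tumors. All 7 fibroblast markers were higher in BRCA1-null than in PyMT and than in Neu tumors, with a summed level of 511 and 2156 CPM in BRCA1-null A and B, 4.92 to 18.4 in the PyMT and Neu libraries and 34.3 in 4T1. Of 7 endothelial markers 6 were higher against both types, with sums of 86.6 and 43.8 against 2.28 to 10.9 in the PyMT and Neu libraries and 14.1 in 4T1. Of the 6 leukocyte markers tested 4 (against PyMT) and 5 (against Neu) were higher, with sums of 41.6 and 79.5 against 0.717 to 4.32, and 6.78 in 4T1. The part of cells with such markers in the levels of the keratins was measured by leaving them out. The paper classed a BRCA1-null cluster rich in fibroblast genes as tumor cells, from inferred copy number changes. The cells left out here may therefore include tumor cells. Without the cells that carry at least 3 such markers, Krt5, Krt15 and Krt17 still passed against PyMT and the 4 basal keratins and Krt19 against Neu, while Krt18 no longer passed against PyMT (log2 fold change -2.50, adjusted p = 0.0781, edgeR). Of 5 tested myoepithelial genes, Acta2, Cnn1 and Tagln were higher in BRCA1-null than in both types, with a summed level of 250.05 and 310.03 against 1.73 to 16.8 in all other libraries; most of these contractile genes also mark pericytes and smooth muscle.

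Shares of cells were compared after thinning each of the 11474 cells with enough reads to 3000 UMIs, which left out 23 to 233 cells of a library. Krt14 was detected in 58.7% of cells of BRCA1-null B (1115 of 1901) and 61.1% of 4T1 (1030 of 1685), but in 5.41% of BRCA1-null A (12 of 222), 1.89% and 5.02% of PyMT A and B, and 0.434% and 1.54% of Neu A and B. Krt5 was detected in 15.3% of BRCA1-null B, 3.6% of BRCA1-null A, 0.39% or less of the PyMT and Neu libraries and 0 of 1685 cells of 4T1. That count of 0 allows up to 0.178% of cells with a Krt5 UMI at this depth, and 6 of 1751 cells (0.343%) held one when all UMIs were used. The 2 BRCA1-null tumors, which both read high in Krt5, therefore differed in how many cells carried it. In BRCA1-null A, the 12 cells with Krt17 held 14.7 UMIs of it on average and 1 of them held 102, against 6.003 UMIs on average in 881 cells of BRCA1-null B. Krt17 was detected in 46.3% of BRCA1-null B, 5.41% of A, 11.4% of 4T1 and 0.289% to 1.51% of the PyMT and Neu libraries, and Krt15 in 27.1%, 4.05%, 4.09% and 0.0482% to 1.06%.

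Krt8 and Krt18 were detected in nearly every cell of PyMT (99.2% to 99.8%) and in 83.8% and 89.5% (Krt8) and 91.1% and 98.7% (Krt18) of Neu A and B. In BRCA1-null B they were detected in 63.0% and 72.5% of cells, and in BRCA1-null A in 29.7% and 33.8%. PyMT cells that were positive held 18.3 to 21.9 UMIs of each gene at 3000 UMIs, against 2.9 to 7.89 in the other 5 libraries, so both the share of positive cells and the UMIs per positive cell were highest in PyMT. Krt7 was detected in 75.9% and 66.7% of PyMT, 70.3% of 4T1, and 7.21% to 9.94% of the BRCA1-null and Neu libraries. Krt19 split the PyMT tumors, with 36.2% of PyMT A and 0.948% of PyMT B; the 17 positive cells of PyMT B held 6.35 UMIs on average and the 669 of PyMT A 2.33. It was detected in 11.7% and 24.9% of BRCA1-null A and B, 29.7% of 4T1 and 0.675% and 0.257% of Neu A and B.

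The basal signal was set beside that of cells with markers of other types. Those with fibroblast markers in BRCA1-null B cannot be taken as cells without keratin, since 472 of 888 (53.2%) had an Epcam UMI, as had 9 of the 15 with leukocyte markers. In BRCA1-null B, 7 of 15 cells with leukocyte markers (46.7%, exact 95% interval 21.3% to 73.4%, median depth 8187 UMIs) had a Krt14 UMI, as had 421 of 888 cells with fibroblast markers (47.4%, 13041 UMIs) and 681 of 977 other cells (69.7%, 12718 UMIs). Mean Krt14 UMIs per thinned cell were 1.33, 2.86 and 6.71 in these 3 sets, and those of Krt8 were 0.533, 1.67 and 4.93. The leukocyte share overlapped the share of the other cells in its interval, so at this number of cells a part of the Krt14 detection of BRCA1-null B cannot be told apart from free RNA. In 4T1, 2 of 4 cells with leukocyte and 0 of 4 with fibroblast markers had Krt14. In BRCA1-null A the numbers were 0 of 8, 1 of 7 and 1 of 17 for leukocyte, endothelial and fibroblast markers, against 11 of 194 other cells, and the PyMT and Neu libraries had too few such cells (0 to 3) for a value.

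Cells were classed by Krt5 or Krt14 on the basal side and Krt8 or Krt18 on the luminal side, with 1 UMI of each side enough at 3000 UMIs. Double-positive cells made up 53.6% of BRCA1-null B (1019 of 1901, exact 95% interval 51.3% to 55.9%) and 60.8% of 4T1 (1025 of 1685, 58.5% to 63.2%). They were 4.05% of BRCA1-null A (9 of 222, 1.87% to 7.56%), 1.89% of PyMT A (35 of 1849, 1.32% to 2.62%), 5.18% of PyMT B (93 of 1794, 4.2% to 6.31%), 0.434% of Neu A (9 of 2075, 0.199% to 0.822%) and 1.49% of Neu B (29 of 1948, 0.999% to 2.13%). The intervals cover counting error only. The product of the shares of cells with a basal and with a luminal UMI was 49.4% in BRCA1-null B and 60.7% in 4T1. It was 3.54%, 1.95%, 5.18%, 0.425% and 1.54% in BRCA1-null A, PyMT A, PyMT B, Neu A and Neu B. In 4T1, PyMT and Neu 97.9% to 99.9% of cells held a luminal UMI. Their double-positive share was thus nearly the share with a basal UMI. Among cells with leukocyte markers, 5 of 15 in BRCA1-null B (33.3%, 11.8% to 61.6%) and 2 of 4 in 4T1 were double-positive too. By type the share was 28.8% ± 35.0 (SD, n = 2) for the BRCA1-null tumors, 3.54% ± 2.33 for the PyMT tumors and 0.961% ± 0.746 for the Neu tumors, so the BRCA1-null tumors differed more from each other than PyMT from Neu tumors, and BRCA1-null A lay between the 2 PyMT tumors. Luminal-only cells were 98.1% and 94.6% of PyMT, 97.4% and 98.3% of Neu, 38.5% of 4T1, 28.1% of BRCA1-null B and 100 of the 222 cells of BRCA1-null A. Basal-only cells reached 3.15% (7 cells) and 6.79% (129 cells) in BRCA1-null A and B and at most 0.297% elsewhere, and cells with neither were 47.7% and 11.5% there. In BRCA1-null A, Epcam, an epithelial adhesion protein, was detected in 24.5% and Vim in 70.8% of the 106 cells with neither, against 37.0% and 61.0% of its luminal-only cells.

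**Figure D3:**
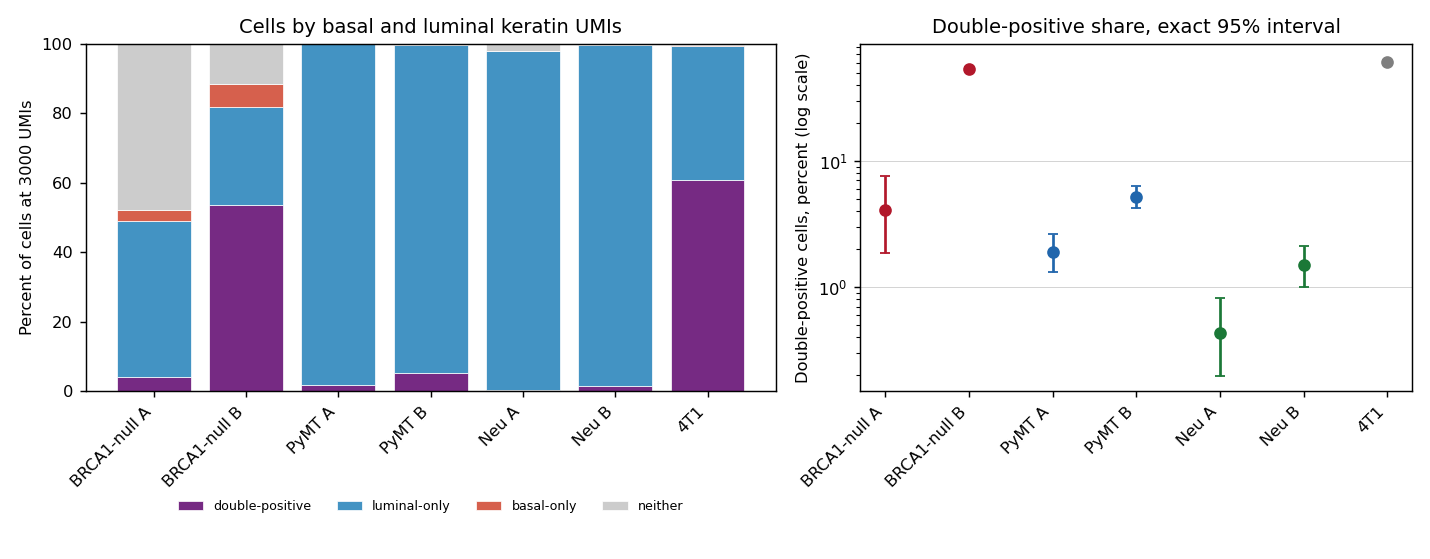
Left, share of cells (percent of cells at 3000 UMIs, y axis) in the 4 keratin classes for each library (x axis). Right, share of double-positive cells (percent, log scale) with its exact 95% interval, where BRCA1-null B (53.6%) and 4T1 (60.8%) stand above the other 5 libraries (0.434% to 5.18%).

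These shares depend on how a positive cell is defined. With all UMIs of a cell used, double-positive cells were 18.4% and 78.8% of BRCA1-null A and B, 3.65% and 20.0% of PyMT A and B, 1.43% and 8.51% of Neu A and B and 80.9% of 4T1; with at least 2 UMIs on both sides they were 3.15% and 36.7%, 0.433% and 1.45%, 0 and 0.0513%, and 39.1%. A single basal UMI carried 100.0% of the double-positive cells of Neu A and 96.6% of Neu B, 77.1% and 72.0% of PyMT, 35.6% of 4T1 and 23.5% of BRCA1-null B. Leaving out the cells with markers of other types raised the share of BRCA1-null B to 67.0% (655 of 977) and moved the other 6 libraries by less than their intervals. Doublets were 2 of the 1019 double-positive cells of BRCA1-null B, 8 of the 1025 of 4T1 and 1 of the 9 of BRCA1-null A.

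Double-positive cells were not of 1 kind across the tumors. In 4T1 all 1025 carried Krt14 without Krt5, whereas in BRCA1-null B 232 carried both (22.8%), 25 Krt5 alone and the remaining 74.8% Krt14 alone. They held a median of 5 basal and 5 luminal UMIs in BRCA1-null B, 2 and 11 in 4T1, 1 and 28 in PyMT A and B, and 1 with 4 or 7 in Neu A and B. Krt17 was detected in 65.5% of double-positive and 22.1% of luminal-only cells of BRCA1-null B, and in 14.9% and 5.7% of those of 4T1. Krt15 was detected in 39.9% and 11.96% of BRCA1-null B and in 5.07% and 2.62% of 4T1. Krt19 went the other way in BRCA1-null B, with 25.8% of double-positive and 33.6% of luminal-only cells, and not in 4T1, with 33.5% and 23.7%. Vim (vimentin, the filament of mesenchymal cells) was detected in 91.3% of double-positive and 94.0% of luminal-only cells of 4T1 and in 76.3% and 70.5% of those of BRCA1-null B, and Epcam in 92.1% and 66.9% of those of BRCA1-null B. In BRCA1-null B 35.7% of double-positive and 48.6% of luminal-only cells carried markers of other types.

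A few cells of the luminal tumors were rich in basal keratin. At a limit of 5 basal UMIs, set after the values were seen, PyMT A had 5 such cells, PyMT B 8, Neu A 0 and Neu B 1, against 8 in BRCA1-null A, 584 in BRCA1-null B and 208 in 4T1. In PyMT B all 8 also held Krt8 and Krt18, 6 held Krt17 and 4 held Krt5 among all their UMIs, and Epcam was present in all 8. Postn, periostin of the matrix, was found in 4 of the 5 cells of PyMT A and in 4 of the 8 of PyMT B, against 1.32% and 4.29% of the cells of those tumors without a basal UMI. None of the cells of PyMT and Neu was called a doublet, and they are too few for a test.

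Whether keratins shared cells was measured in each library by the log2 odds ratio of detecting a pair in the same thinned cell, and tested over libraries by an exact sign-change permutation test (two-sided, Benjamini-Hochberg over the 13 pairs measured in at least 6 libraries). No pair passed at an adjusted p of 0.05, and 4 had an unadjusted p under 0.05. Krt8 and Krt18 went together in 7 of 7 libraries (mean 3.37 ± 2.80 SD, n = 7, exact p = 0.0156, adjusted p = 0.102), as did Krt7 and Krt18 (2.25 ± 1.49 SD, n = 7, exact p = 0.0156, adjusted p = 0.102). Krt14 and Krt17 went together in 6 of 6 (3.16 ± 1.29 SD, n = 6, exact p = 0.0312, adjusted p = 0.135) and Krt7 and Krt8 in 6 of 7 (1.91 ± 1.61 SD, n = 7, exact p = 0.0469, adjusted p = 0.152). The p-values of the pairs seen in 7 of 7 and 6 of 6 libraries are the smallest that these numbers of libraries can give. When 2 UMIs were required for a gene, 3 pairs could be tested and all 3 passed (adjusted p = 0.0156, exact test), and 2 of the 3 pairs that remained testable passed without BRCA1-null A, BRCA1-null B, PyMT A, PyMT B or 4T1, where fewer pairs enter the adjustment.

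Pairs of 1 basal and 1 luminal keratin had low or negative odds ratios where nearly every cell held the luminal keratin. Krt14 and Krt8 had positive log2 odds ratios in both BRCA1-null libraries and 4T1 and negative ones in the 3 PyMT and Neu libraries measured, with a mean of -0.67 ± 2.37 SD (n = 6, exact p = 0.656), and the values for Krt14 and Krt18 had the same signs (-0.51 ± 2.15, n = 6, exact p = 0.656). The negative values rest on very few cells. A single Krt14-positive cell lacked Krt8 in PyMT A and in PyMT B, and a single one lacked Krt18 in PyMT A and in Neu B. In PyMT B all 90 Krt14-positive cells held Krt18, so its value of -0.14 is negative through the added 0.5 alone. In the libraries where the luminal side was not in nearly every cell, BRCA1-null B and A, the log2 odds ratio of the basal and luminal sides was 1.68 and 0.42. With all UMIs of a cell used, the mean ratio turned to 1.05 for Krt14 and Krt8 and to 0.70 for Krt14 and Krt18.

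**Figure D4:**
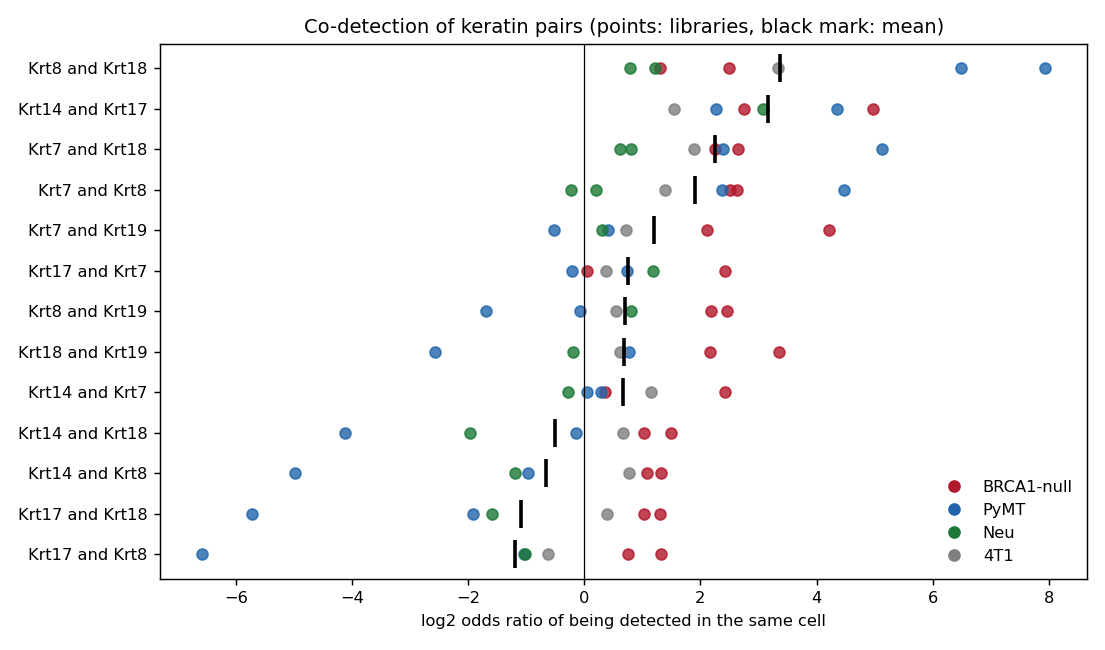
Log2 odds ratio of finding 2 keratins in the same cell at 3000 UMIs (x axis) for the 13 pairs measured in at least 6 libraries (y axis), with 1 point for each library and a black mark for the mean. Krt8 with Krt18 and Krt7 with Krt18 lie right of 0 in 7 of 7 libraries, and Krt14 with Krt8 or Krt18 lies right of 0 in BRCA1-null and 4T1. The points left of 0 for these pairs, in PyMT and Neu, rest on 0 to 6 cells that lacked the luminal keratin.

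Double-positive cells were then compared with luminal-only cells of the same library, by summing UMIs per class and leaving out the 8 keratins. Over the 5 libraries with at least 10 cells of both classes (BRCA1-null B, PyMT A, PyMT B, Neu B and 4T1), 5 genes were higher and 17 lower in double-positive cells among 11134 tested (0.0449% and 0.153%, edgeR with the library as a block). Lgals7 rose in 5 of 5 libraries, from 836 to 1879 CPM in BRCA1-null B, 46.0 to 134 in PyMT A, 55.1 to 105 in PyMT B, 7.7 to 36.6 in Neu B and 42.0 to 72.3 in 4T1 (log2 fold change 1.14 ± 0.13 SE, adjusted p = 0.000855). Espn, which bundles actin, rose in 5 of 5 (0.80 ± 0.15, adjusted p = 0.0336), Igfbp2 in 4 of 5, and Trp63 and Sncg in 3 of 5. The fitted effect of these last 2 genes is mostly that of the libraries where they are expressed, with Trp63 at 15.6 against 2.37 CPM in BRCA1-null B.

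Of the 17 genes that were lower in double-positive cells, 7 were lower in 5 of 5 libraries. Saa2, serum amyloid A2, was lower in 5 of 5 libraries. It read 44.4 against 0.7 CPM in BRCA1-null B, 10.7 against 2.73 in PyMT A, 13.3 against 1.06 in PyMT B, 6.7 against 0 in Neu B and 13.4 against 0.67 in 4T1 (luminal-only against double-positive). Its neighbor Saa1 was lower too (adjusted p = 5.78e-08 for Saa2 and 0.0336 for Saa1, edgeR). The double-positive sums held 35 cells in PyMT A, 93 in PyMT B and 29 in Neu B. Their values for both genes rest on very few UMIs and lie near the floor. Ltf (lactoferrin), Trf (transferrin), Cd14 (the lipopolysaccharide co-receptor) and Cyr61 fell in 5 of 5 by 0.85, 0.55, 0.52 and 0.49 on the log2 scale, and Pigr, the immunoglobulin carrier, and Btn1a1, of the milk fat globule, fell in 4 of 5. Col1a2 and Col3a1 fell as well, beside the lower share of cells with fibroblast markers in BRCA1-null B. Lgals7 and Saa2 kept their calls in 10 of 11 alternatives. The number of genes called was 12 without BRCA1-null B, 13 without PyMT A, 36 without PyMT B and 78 without 4T1, and 6 without the cells that carry markers of other types, of which Lgals7, Saa2, Cited1, Ptn and Sncg were among the 22. DESeq2 called 7 of the 22 (Btn1a1, Espn, Lgals7, Ltf, Saa1, Saa2 and Sncg), and edgeR without the library block called 0.

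**Figure D5:**
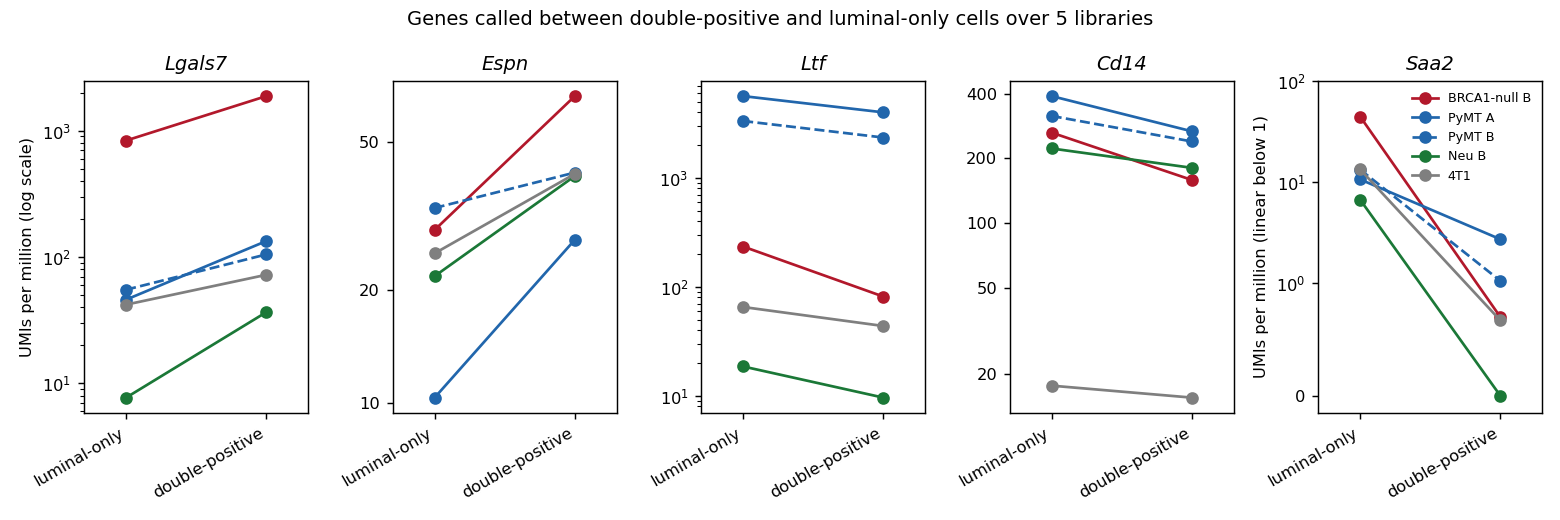
CPM (y axes, log scale; that of Saa2 is linear below 1) in the summed luminal-only and double-positive cells (x axis) of 5 libraries, with 1 line for each library, for 5 of the 22 genes called. Lgals7 and Espn are higher and Ltf, Cd14 and Saa2 lower in the double-positive cells of all 5 libraries. The Saa2 values of the double-positive cells of PyMT A, PyMT B and Neu B rest on very few UMIs.

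Within tumor types the class comparison had 1 residual degree of freedom, since BRCA1-null A and Neu A had 9 double-positive cells each and were left out. The BRCA1-null and Neu values therefore come from 1 tumor each, with the spread taken from the 2 PyMT tumors, and describe those libraries rather than the type. The fit called 4.77% of 14367 genes higher and 6.08% lower for BRCA1-null, 0.494% and 1.15% for PyMT tumors, and 0.0696% and 0.0835% for Neu, while DESeq2 called 25, 27 and 10 genes in all, against 1559, 236 and 22. In PyMT DESeq2 called 26 genes higher and 1 lower, where edgeR called 71 and 165. In BRCA1-null B the largest rises among genes over 50 CPM were in Krt16 (19.9 to 314 CPM), S100g (11.5 to 180), Wnt10a (12.3 to 127), Krt6a (17.7 to 170), Rbp4 (14.1 to 129) and Fst (43.4 to 339), and 8 of 12 desmosome, 6 of 9 hemidesmosome and 9 of 15 squamous genes were higher in double-positive cells. Of 8 luminal progenitor genes 7 were lower there, Elf5, Lcn2 and Ltf among them, as were 6 of 8 milk genes, with Csn2 (beta-casein) at 143 against 1379. Igkc, an immunoglobulin chain of plasma cells, read 16.3 against 698 and Apod 107 against 700. Lower too were 5 of 7 fibroblast and 6 of 7 endothelial markers, beside the share of cells with markers of other types given above. The fibroblast marker Postn went the other way, at 434 against 206 CPM. Of 6 myoepithelial genes Acta2, Mylk and Tagln were lower and Cnn1 was higher.

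In PyMT tumors the genes over 50 CPM with the largest rises in double-positive cells included Cxcl14, a chemokine, Sparc and Postn, proteins of the extracellular matrix, and Igfbp7, a secreted binding protein. Cxcl14 read 38.2 against 0.228 CPM in PyMT A and 58.8 against 0.813 in PyMT B (double-positive against luminal-only), Sparc 21.8 against 2.16 and 96.9 against 3.45, Igfbp7 175 against 9.91 and 71.0 against 9.78, and Postn 57.3 against 1.71 and 18.5 against 3.5. Both tumors showed each of these changes, in sums of 35 and 93 double-positive cells. Of the cells with 1 basal UMI, 0 of 27 in PyMT A and 3 of 67 in PyMT B held Postn, against 1.32% and 4.29% of cells without a basal UMI. Of the cells with at least 5 basal UMIs, 4 of 5 and 4 of 8 held it, and 4 of those 5 and all 8 were double-positive. Cells between these limits were not counted, and the Postn UMIs of the sums were not split by cell. Gja1 and Fst were higher as well, Dcn and Postn were the 2 of 7 fibroblast markers called, and 0 of the 35 and of the 93 cells carried 3 markers of another cell type. Cd14, Lcn2 and Ltf of the luminal progenitor list and 5 of 8 milk genes were lower in the fit. Of these Csn1s2a, Csn3 and Wap were lower in both tumors. Csn1s1 read 188 against 157 CPM in PyMT A, and Glycam1 was at 0 in both classes of PyMT A. The median log2 change over all genes of this fit was -0.23, beside -0.71, -0.61 and -0.78 for Cd14, Lcn2 and Ltf. Without doublets the median over all genes was -0.05, and 57 genes were called lower in place of 165. In Neu B the 29 double-positive cells had Slpi at 114 against 8.92 CPM, and Lgals7 was the only squamous gene of 15 tested that was called there.

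The genes whose level followed each keratin most closely over the 7 libraries were found by Pearson's r of log2(CPM + 1) among 9499 genes with at least 10 CPM in a library. Krt5 was nearest to Pcdh7, Postn and Trim29 (r of 0.993, 0.993 and 0.99) and Krt14 to Arhgap42, Krt16 and Anln (0.996, 0.988 and 0.987). Krt15 was nearest to Cep126, Rpl15 and Eef1b2 (0.986, 0.983 and 0.982), and Krt17 to Rack1, Snrpe and Krt15 (0.984, 0.982 and 0.981). Krt7 was nearest to Rnf19b, Piezo1 and Rtn4 (0.986, 0.986 and 0.985), Krt8 to Met, AI661453 and Krt18 (0.994, 0.98 and 0.979), Krt18 to Gng5, AI661453 and Met (0.986, 0.98 and 0.98) and Krt19 to Efnb1, Slpi and AC127341.3 (0.98, 0.976 and 0.971). Among the members themselves Krt15 and Krt17 (0.981) and Krt8 and Krt18 (0.979) were the closest pairs, and Krt18 and Krt5 the most opposed (-0.45). These are descriptions over 7 libraries that share tumor types, batches and cell make-up, and levels of cells with fibroblast markers are part of those of Postn.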

How the data were processed

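Single-cell 3′ libraries (10x Chromium v2) of 7 mouse mammary tumors were used as gene by barcode matrices of raw counts. Per the labels and processing notes, the authors made these deposited counts with Cell Ranger 2.2.0 (A libraries and 4T1) or 3.0.2 (B libraries) and STAR (no version given in the sources used here) on mm10, and each value is a number of UMIs. The Cell Ranger version therefore changes together with the replicate letter.

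From these counts, cells with at least 1000 UMIs, 500 genes and under 20% mitochondrial UMIs were kept, and doublets were called with Scrublet in scanpy 1.11.5 (expected rate 2%) and kept. UMIs were summed per library and, for 2 tumors of each of 3 types (6 libraries, 3 residual degrees of freedom), tested with edgeR 4.0.16 (quasi-likelihood, TMM, robust) in R 4.3.3, with Benjamini-Hochberg adjustment over all genes tested and a threshold of 0.05; DESeq2 1.42.0 was an alternative. The 4T1 tumor entered only the descriptions, the pairs and the 5-library class comparison (4 residual degrees of freedom), which was added after the data were seen. For shares of cells each cell was thinned to 3000 UMIs (seed 1), and 694 shallower cells were left out; shares carry exact Clopper-Pearson and counts exact Poisson 95% intervals, which cover counting error only. Odds ratios had 0.5 added to each count. The code was tested on simulated data.

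The members and gene lists were chosen with earlier results of these data known. Genes named in the text were the 8 members, other keratins over 50 CPM, up to 3 genes of each list with the smallest adjusted p, for the class comparisons up to 6 genes in each direction with the largest change among those called, over 50 CPM and with classes that do not overlap, the 3 genes nearest to each member, and markers of other cell types that moved with a result. Genes named outside this rule, the 5-library genes and all counts of 5 or fewer among them, were chosen after their values were seen. Over all genes past the count filter the letter did not pair the tumors, since deviations from the type means correlated at 0.0592, 0.118 and 0.169 over the 3 pairs of types. Among the members, however, Krt5, Krt14, Krt15, Krt17, Krt8 and Krt18 read higher in B than in A in all 3 types. The share of double-positive cells was also higher in B in each type. What in the letter goes with this was not tested.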

Additional observations from a re-analysis of the deposited data

Results flagged for a closer look

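The difference between double-positive and luminal-only cells was compared between BRCA1-null and PyMT by the interaction term of the class fit. The genes listed are those it called among the genes named for the class comparisons. These had been picked from the same fit for large class effects within a tumor type, which favors a difference. The list is therefore a description and tests nothing. Values are the log2 class effect in BRCA1-null minus that in PyMT. Lower in BRCA1-null were Cxcl14 (-6.91), Sparc (-5.33), Igfbp7 (-4.39), Csn2 (-2.50), Postn (-1.75) and Gja1 (-1.32). Higher were Wnt10a (8.61), S100g (4.21), Fst (1.70), Krt16 (1.63) and Ppif (0.90). Postn, Gja1, Fst and Krt16 were higher in the double-positive cells of all 3 libraries, so for them the difference is one of size. The BRCA1-null effect comes from 1 tumor and the fit has 1 residual degree of freedom, and Wnt10a had 0 UMIs in the double-positive cells of PyMT A and B, so its value is no bound.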

How the results depend on the processing

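The direction of every called member was the same in 14 of 14 alternatives, and the calls of Krt7 were kept in all of them; other calls were lost mainly with 1 tumor fewer. Leaving out 1 tumor gave 254 to 3863 called genes in BRCA1-null against PyMT (3086 with all), 838 to 4607 in BRCA1-null against Neu (4058) and 276 to 4040 in PyMT against Neu (2343), and 1 to 7, 0 to 5 and 1 to 3 called members (6, 5 and 3 with all). Without the filter on low counts 2 and 0 members passed in the first and the second comparison. With the replicate block 7, 5 and 5 members passed and 2874, 3814 and 2217 genes were called, in the order of the comparisons above. The letters did not pair the tumors over all genes, but most members read higher in B than in A in each type. With 1 tumor left out, Krt8 in BRCA1-null against Neu ranged from -1.85 to 0.063, with the sign turned without BRCA1-null A, and Krt19 in BRCA1-null against PyMT from -0.66 to 3.67, with the sign turned without BRCA1-null B (-0.11) or PyMT B. Neither passed the test with all tumors.

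The share of double-positive cells in BRCA1-null A, BRCA1-null B, PyMT A, PyMT B, Neu A, Neu B and 4T1 was 18.4%, 78.8%, 3.65%, 20.0%, 1.43%, 8.51% and 80.9% without thinning. With at least 2 UMIs it was 36.7% in BRCA1-null B, 0.433%, 1.45%, 0 and 0.0513% in PyMT A, PyMT B, Neu A and Neu B, and 39.1% in 4T1. With any of the 4 basal and any of the 4 luminal keratins it was 7.66%, 63.7%, 2.65% and 7.36% in BRCA1-null and PyMT, 2.77% in Neu B and 64.2% in 4T1, and without cells with markers of other types 67.0% in BRCA1-null B. The mean log2 odds ratios of Krt14 and Krt8, Krt14 and Krt18, and Krt17 and Krt8 reversed without thinning (1.05, 0.70 and 0.61). Called pairs rose from 0 to 3 with at least 2 UMIs, and were 0 to 2 with 1 library left out.

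Calls between classes moved most. For BRCA1-null, PyMT, Neu and the difference of BRCA1-null and PyMT (1559, 236, 22 and 427 genes), DESeq2 gave 25, 27, 10 and 18, a fit without the replicate block 0 each, and leaving out cells with markers of other types 874, 120, 14 and 241; in PyMT no filter gave 138 and no doublets 148. Over 5 libraries (22 genes) DESeq2 gave 13, no filter 147, no replicate block 0, no cells with markers of other types 6, at least 2 UMIs 5, and 1 library fewer 12 to 78. The class effect reversed for Tagln in BRCA1-null without cells with markers of other types (0.21), and with DESeq2 for Glycam1 in PyMT (0.017) and Cytl1 over 5 libraries (0.013). The cause of these changes was not tested. Class fits by type with at least 2 UMIs, or without BRCA1-null B, PyMT A, PyMT B or Neu B, were not run, for want of cells or of residual degrees of freedom. Depth limits Krt5 in Neu A and 4T1, where 1 and 11 UMIs were counted.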
